A study of Mus musculus with 16 samples.

Results

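The long intergenic noncoding RNAs (lincRNAs) expressed at a clear level in immortalised mouse embryonic fibroblasts were 77 genes, out of 4976 autosomal lincRNA genes listed in the expression table (1.55%). They were chosen by 3 criteria: the type lincRNA in the GENCODE mouse annotation release 21, a place on an autosome, and a mean rlog value of 8 or more over the 16 lines. An rlog value is a regularised log2 expression value, on which a difference of 1 is a doubling before the shrinkage that the method applies to weakly covered genes. Of 83 genes that met these criteria, H19, Meg3, Mirg, Malat1, Neat1 and Rmrp were left out by name. At the other end, 2555 autosomal lincRNA genes were listed at exactly 0 in every line and 996 had a mean above 0.

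RNA was sequenced from 16 lines of C57BL/6J fibroblasts made from embryos of day 13.5, which had been immortalised by repeated passaging through crisis, with no transgene named in the labels. Parental line MEF-1 and parental line MEF-2 came from different embryos, male for MEF-1 and female for MEF-2 by the study's methods, and 7 clonal lines were grown from single sorted cells of each. Every line gave 1 library of ribosomal RNA-depleted RNA. The 7 clonal lines of a set share 1 embryo, so the 7 against 7 comparison below contrasts 2 cultures, and its p-values measure the spread between these clonal lines only.

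Markers placed the lines as fibroblasts. Of 12 fibroblast markers, 11 had a mean rlog value of 8 or more (Col1a1 20.88, Vim 18.20, Pdgfra 13.86), while Thy1 averaged 4.74 and ran from 2.72 to 10.22 between lines. None of the 4 blood, 4 endothelial, 5 epithelial and 3 muscle markers had a mean of 8 or more, and of 4 neural markers Tubb3 alone did, at 11.26. Because each value is a bulk measurement, fewer cells with an RNA and less of that RNA per cell cannot be told apart.

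LincRNAs are transcribed by RNA polymerase II, capped, usually spliced and often polyadenylated, like messenger RNAs, but they carry no long conserved reading frame. Some act as the RNA itself, by binding proteins or small RNAs in the cytoplasm or chromatin regulators in the nucleus. Others matter mainly through the act of transcription near a neighbouring gene, or as precursors from whose introns and exons small nucleolar RNAs and microRNAs are cut. They are as a class less abundant and more restricted to particular cell types than messenger RNAs.

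Of the 77 lincRNAs, 13 hold annotated small RNA genes on their own strand, 36 in all, namely 26 microRNA, 8 small nucleolar RNA and 2 small Cajal body RNA entries. RefSeq (GRCm38.p6) gave 20 microRNA hairpins and 37 mature microRNAs inside them. The mature strands shown are those of the 3 best-known hosts, since the values below are of the host transcripts and not of these short RNAs, which the libraries were not made to capture. Bases 2 to 8, the seed that pairs with target messages, are in capitals. Mir17hg, on chromosome 14, holds a cluster of 6 microRNA genes known for promoting growth, in which miR-17-5p and miR-20a-5p share 1 seed, miR-19a-3p and miR-19b-3p share another, and the seeds of miR-18a-5p and miR-92a-3p stand alone among those printed.
miR-17-5p: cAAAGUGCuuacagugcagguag
miR-20a-5p: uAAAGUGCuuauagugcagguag
miR-18a-5p: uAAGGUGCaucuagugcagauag
miR-19a-3p: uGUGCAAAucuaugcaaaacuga
miR-19b-3p: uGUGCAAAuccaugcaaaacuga
miR-92a-3p: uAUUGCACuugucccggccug
AL805899.1, on chromosome 4, holds miR-31, and 6720427I07Rik, on chromosome 13, holds 3 let-7 genes whose 5p mature strands have the same seed.
miR-31-5p: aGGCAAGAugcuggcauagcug
let-7a-5p: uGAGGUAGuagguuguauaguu
let-7f-5p: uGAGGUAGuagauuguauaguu
let-7d-5p: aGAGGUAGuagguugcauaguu

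Promoter sequences of RefSeq, from 250 bases before to 50 bases after a start site, exist for 41 of the 77 lincRNAs, and for 29 of them this start lies within 200 bases of the GENCODE start. The 3 promoters printed belong to lincRNAs that separated the 2 sets of clonal lines and have less than 50% of their transcript in stretches shared with other genes. Capitals mark the letters CCAAT of a CAAT box, GGGCGG of a GC box and TATAAA of a TATA box, searched on both strands, none of which is contained in another.
Snhg18, chr15:32244613-32244912, minus strand: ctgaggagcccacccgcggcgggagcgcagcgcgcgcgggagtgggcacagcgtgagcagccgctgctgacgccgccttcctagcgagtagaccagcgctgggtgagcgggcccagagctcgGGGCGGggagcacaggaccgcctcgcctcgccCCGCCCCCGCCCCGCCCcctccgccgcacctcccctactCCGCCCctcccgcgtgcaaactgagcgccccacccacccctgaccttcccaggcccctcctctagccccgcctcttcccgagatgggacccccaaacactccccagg
1700020I14Rik, chr2:119594046-119594345, plus strand: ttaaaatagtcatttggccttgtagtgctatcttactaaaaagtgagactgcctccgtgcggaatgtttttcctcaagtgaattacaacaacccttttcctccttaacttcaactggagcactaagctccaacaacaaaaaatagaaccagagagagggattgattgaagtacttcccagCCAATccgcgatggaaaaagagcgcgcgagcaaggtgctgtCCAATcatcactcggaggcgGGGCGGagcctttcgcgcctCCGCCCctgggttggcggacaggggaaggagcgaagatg
AU020206, chr7:75782071-75782370, minus strand: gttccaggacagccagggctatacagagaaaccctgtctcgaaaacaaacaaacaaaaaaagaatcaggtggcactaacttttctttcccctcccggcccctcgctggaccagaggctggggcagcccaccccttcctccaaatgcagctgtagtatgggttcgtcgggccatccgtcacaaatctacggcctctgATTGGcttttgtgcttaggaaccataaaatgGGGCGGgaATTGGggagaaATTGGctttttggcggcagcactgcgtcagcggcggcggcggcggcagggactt
The Snhg18 promoter, which spans the gap between Snhg18 and the divergent gene Sema5a and reaches into both, had 31 CpG dinucleotides and the other promoters printed had 15 each. Over the 29 promoters the median was 16 CpGs (2 to 45), against 7 over 31396 autosomal promoters. The 29 belong to genes chosen for their level, whereas the 31396 were taken with no bound on expression, so the lists are unlike. GGGCGG was in 16 of 29 (55.2%) against 36.0% of all promoters. CCAAT was in 14 (48.3%) against 37.3%, and TATAAA in 3 (10.3%) against 13.6%. The 8 promoters of lincRNAs with a divergent protein-coding gene starting within 2000 bases had a median of 31.5 CpGs. The other 21 had a median of 13. These are matches of letters in a window and no test was made of them.

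The levels that chose the 77 genes fell away steeply. Their mean rlog value was between 8 and 9 in 32 genes, between 9 and 10 in 19, between 10 and 11 in 15, between 11 and 12 in 6, and above 12 in 5. Just inside the bound were 9330104G04Rik (8.073) and 2900076A07Rik (8.065), and just outside were Gm47469 (7.999) and Gm26651 (7.965). In 53 of the 77 every line was at 8 or more, and single values ran from 5.77 to 15.99. The 77 genes lay on all 19 autosomes, with 2 to 8 on each. Their median longest transcript was 2697 bases, against 1498 in the 913 other autosomal lincRNA genes with a mean above 0, and 15 of them had 1 exon.

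The highest of all was 2900097C17Rik, which RefSeq names Norad, a single-exon cytoplasmic RNA known to bind Pumilio proteins and to be needed for faithful chromosome segregation. It averaged 15.63. Zfp469 averaged 13.66 and 1700020I14Rik averaged 13.64. The latter is Oip5os1 in RefSeq, known as Cyrano, an RNA with a conserved site that brings about the decay of miR-7. Then came 1810058I24Rik (12.33) and Gm37494 (12.15). Per length, as the mean rlog value minus log2 of the longest transcript in kilobases, the order changed: Bc1 stood at 13.34 and 2900097C17Rik at 13.33, Zfp469 at 12.04, Snhg12 at 11.20, 1700020I14Rik at 10.58 and Gm37494 at 8.15. RefSeq and GENCODE differ on what some of these genes are: of 51 lincRNAs matched by position and name, RefSeq lists 41 as long noncoding RNA, 8 as protein-coding, Zfp469, 1810058I24Rik and Gm37494 among them, and 2 as pseudogenes. A further limit is that 8 of the 77 overlap a protein-coding gene on the same strand, and Zfp469, Gm42047 and Gm4316 lie inside the span of the readthrough gene Gm20388.

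When MEF-2 clones were set against MEF-1 clones, 20 of the 77 lincRNAs were higher in MEF-2 (26.0%), 23 were higher in MEF-1 (29.9%), and 34 did not pass limma's test at an adjusted p of 0.05. Among all 21313 genes tested, 22.6% were higher in MEF-2 and 25.7% higher in MEF-1. Among the 11201 genes of any type that reached the same mean of 8, 3579 and 2804 were called in these directions, so that 57.0% were called against 55.8% of the lincRNAs. The median difference, MEF-2 minus MEF-1, was −0.03 over the lincRNAs and 0.04 over genes of that level. Differences of 1 or more in size were found in 8 lincRNAs (10.4%, against 7.84% of genes of that level). In 10 lincRNAs every MEF-2 clonal line lay above every MEF-1 clonal line, and in 8 the reverse. Beside them stand 1668 and 1418 of the 11201 genes of that level, and 9.91% and 11.3% of all genes tested. By limma's test the lincRNAs were thus called about as often as other genes of that level.

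The bound of 8 itself favoured some of these calls. In 7 lincRNAs the MEF-1 clonal mean was below 8, so that they were included through their MEF-2 level. Of those, 6 were called higher in MEF-2, namely Gm42047, Gm47761, AL805899.1, Gm49083, Gm20939 and Mir17hg. The differences and p-values given for these 6 below carry this limit. In 1, Gm47204, the MEF-2 clonal mean was below 8, and it was called higher in MEF-1. Of the 69 with both clonal means at 8 or more, 14 were higher in MEF-2, 22 were higher in MEF-1 and 33 were not called.

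**Figure D1:**
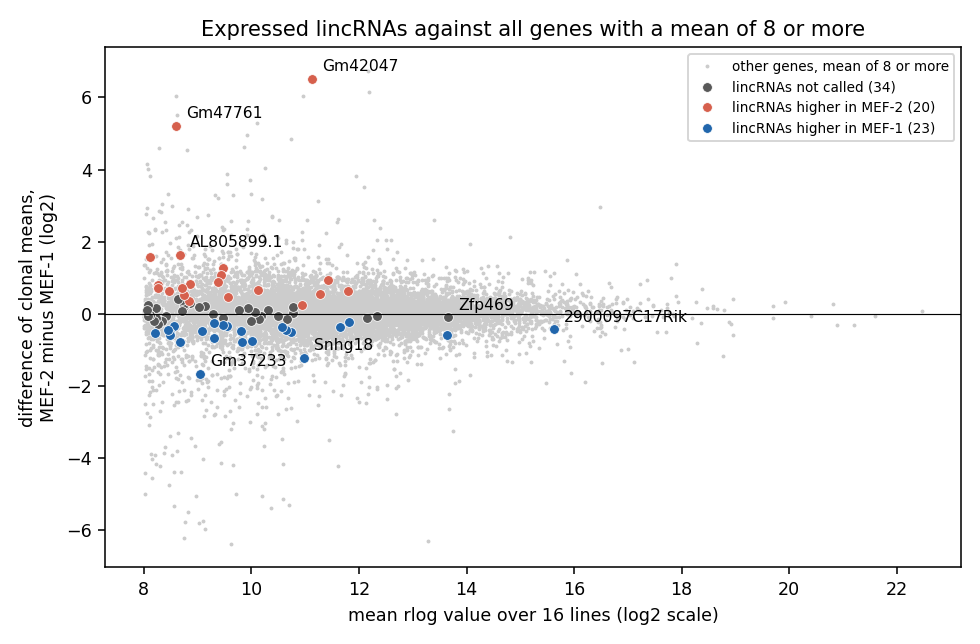
Difference of clonal means, MEF-2 minus MEF-1 (log2, vertical axis), against the mean rlog value over 16 lines (log2 scale, horizontal axis) for genes with a mean of 8 or more; grey dots are other genes and larger dots are the 77 lincRNAs, coloured by limma's call. Gm42047 and Gm47761 stand far above the other lincRNAs at differences of 6.51 and 5.21, and most lincRNAs lie among the cloud of other genes.

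The largest differences were those of Gm42047 and Gm47761, the latter a pseudogene in RefSeq, on chromosome 8 (chr8:121833247-121841178, plus strand, mm10) and chromosome 10 (chr10:17318085-17323228, minus strand). Gm42047 was at 7.84, 7.99, 7.91, 7.80, 7.91, 7.80 and 7.80 in MEF-1 clonal lines 1 to 7 and at 14.05, 14.63, 13.95, 14.42, 14.58, 14.44 and 14.51 in MEF-2 clonal lines 1 to 7. The parental lines were at 8.21 and 14.34, each beside its own clonal lines. The difference was 6.51 (SE 0.098, adjusted p = 2.47e-16). Gm47761 was at 6.10, 5.98, 5.77, 6.08, 5.92, 6.12 and 5.82 in the MEF-1 clonal lines and at 10.85, 11.48, 10.77, 11.15, 11.44, 11.28 and 11.32 in the MEF-2 clonal lines, with parental lines at 6.22 and 11.28. Its difference was 5.21 (SE 0.117, adjusted p = 4.08e-14). In both genes the gap between the sets was many times the spread within either, and it was already present in the parental lines.

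Gm42047 and Gm47761 are not independent measurements. Of the 4988 bases of the longest Gm42047 transcript, 95.9% lie in stretches of at least 95% identity to transcripts of other annotated genes, and 2530 of the 3093 bases of Gm47761 match Gm42047. Other genes holding such stretches were higher in MEF-2 as well. Gm48362 on chromosome 9, with 3201 shared bases, was at 3.97 to 4.98 in MEF-1 and 6.28 to 7.20 in MEF-2 clones (difference 2.33, adjusted p = 5.35e-08). Gm47939 on chromosome 10 (2.40), Gm46349 on chromosome 12 (1.94) and Gm43549 on chromosome 3 (1.55) were also called higher in MEF-2. 1700063D05Rik, sharing 344 bases at 95.6% identity, was not called (−0.17, adjusted p = 0.426). Reads from such copies can be divided among them in quantification, so which of these loci was transcribed was not resolved in these values. The protein-coding gene next to Gm42047, Klhdc4, 3678 bases away, was higher in MEF-2 by 0.18 (adjusted p = 0.0491), and Cited2, the nearest to Gm47761, was not called (−0.41, adjusted p = 0.0922). The genes of any type whose values over the 14 clonal lines followed Gm42047 most closely by Pearson correlation, an ordering set mainly by the gap between the sets, were Gm47761, Gm47283, annotated on chromosome Y yet higher in the lines from the female embryo (difference 6.04), and Rian in the imprinted domain of chromosome 12 (6.16).

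**Figure D2:**
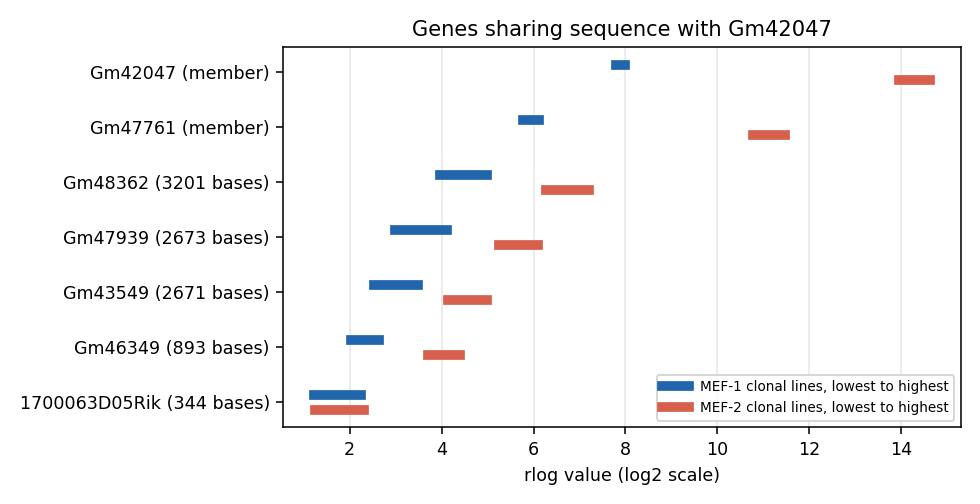
Rlog values (log2 scale) of Gm42047 and of genes that share stretches of at least 95% identity with it. Bars run from the lowest to the highest of the 7 clonal lines of each set. In the genes with the most shared bases the MEF-2 bar lies above the MEF-1 bar, at levels that differ widely between genes.

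Of the 77 lincRNAs, 17 had at least 50% of their longest transcript in such stretches of other genes, and their values carry the same uncertainty. Among these 17, 8 were higher in MEF-2, 3 were higher in MEF-1 and 6 were not called. The other 60 divided as 12, 20 and 28. The shares over all genes tested were 22.6% higher in MEF-2 and 25.7% higher in MEF-1, and the split was not tested against them. Of the 18 lincRNAs without overlap between the sets, 7 belonged to the 17 with shared sequence, 6 of them higher in MEF-2.

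Among the other lincRNAs higher in MEF-2, AL805899.1, the host of miR-31, was at 7.63, 7.90, 7.96, 7.40, 7.22, 8.03 and 8.90 in the MEF-1 clonal lines and at 9.56, 9.45, 9.31, 9.48, 9.45, 9.87 and 9.35 in the MEF-2 clonal lines. The parental lines were at 7.58 and 9.60. The difference was 1.64 (SE 0.201, adjusted p = 9.1e-06), and MEF-1 clonal line 7 came closest to the MEF-2 lines. Gm49083 on chromosome 14 ranged from 6.60 to 8.22 in MEF-1 and from 8.46 to 9.20 in MEF-2 clonal lines (1.57, SE 0.191, adjusted p = 7.91e-06). Its whole transcript is repeated in other genes, and of these Gm8113 was likewise higher in MEF-2 (1.85, adjusted p = 4.06e-07). AC132253.9 on chromosome 19 shares all 2385 bases, at 98.2% identity, and was higher in MEF-2 as well (0.93, adjusted p = 0.000164). AC132253.9 is itself among the lincRNAs called higher in MEF-2, so its call and that of Gm49083 may not be independent. Gm47547 (0.72) and Gm49708 (0.95), which also hold such stretches, were called higher in MEF-2 too.

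AU020206, a spliced lincRNA on chromosome 7 (chr7:75769038-75782099, minus strand), was at 8.24, 8.99, 8.81, 8.79, 9.13, 8.70 and 9.08 in the MEF-1 clonal lines and at 10.02, 10.15, 10.15, 10.21, 10.18, 9.79 and 10.15 in the MEF-2 clonal lines, with parental lines at 9.45 and 9.85. The difference was 1.27 (SE 0.121, adjusted p = 6.28e-07), and the MEF-1 parental line lay above all of its clonal lines. 2410018L13Rik on chromosome 12 was at 8.60 to 9.05 in MEF-1 and at 9.92 to 9.99 in MEF-2 clonal lines (1.09, SE 0.069, adjusted p = 8.6e-09). Chromosome 12 as a whole was higher in MEF-2, its protein-coding genes by a median of 0.65, and 79.3% of this transcript lies in stretches shared with other genes. Measured against the chromosome median its difference was 0.43 and it was still called. Gm29562 (0.89, adjusted p = 8.05e-05) and Gm20939 (0.81, adjusted p = 5.21e-05) complete the 8 largest differences without overlap in this direction. The whole Gm29562 transcript is found in stretches of other genes. With stretches on the same strand, Gm48161, sharing all 904 bases (0.87), and Gm29084, sharing 584 (0.39, adjusted p = 0.00539), were higher in MEF-2. Noct, sharing 848 on that strand, was not called (−0.03). Cpne8 and Bckdhb, with shorter stretches on it, were higher in MEF-1 (−0.31 each). Slc38a6, with its stretch on the opposite strand, was not called (0.10). RefSeq lists Gm20939 as protein-coding.

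**Figure D3:**
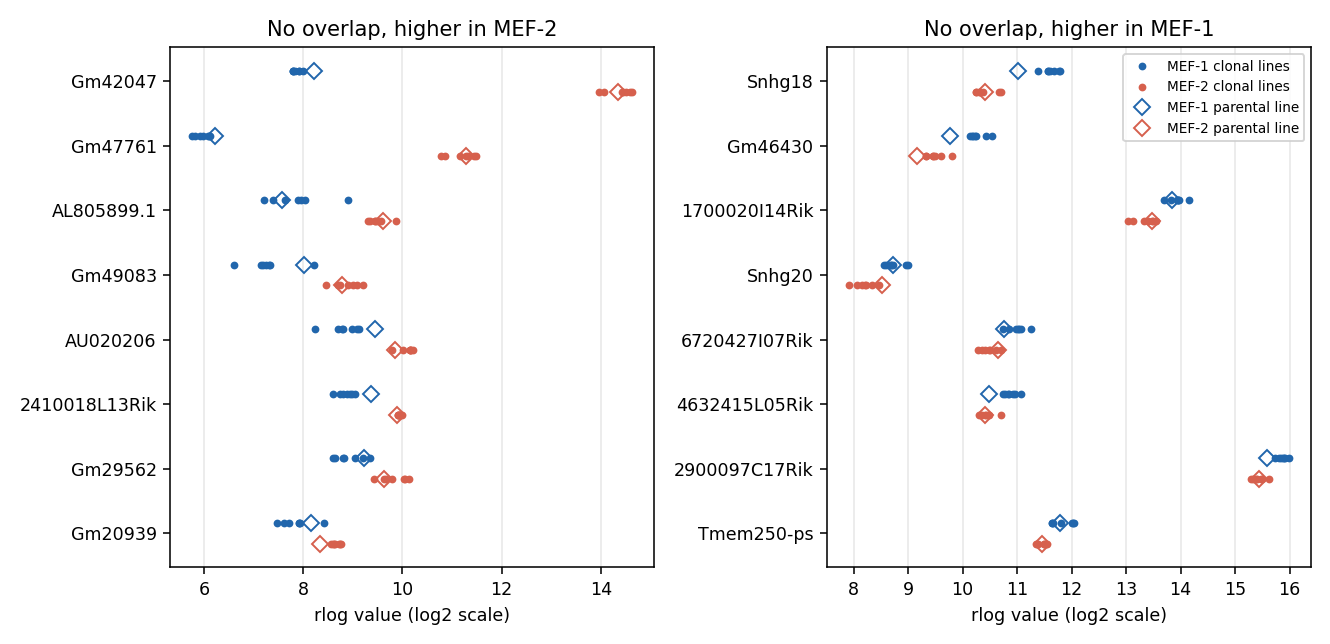
Rlog values (log2 scale) in each clonal line (dots) and parental line (open diamonds) for the lincRNAs with the largest differences and no overlap between the 7 MEF-1 (blue) and 7 MEF-2 (orange) clonal lines. The difference of clonal means, MEF-2 minus MEF-1, ranges from 6.51 in Gm42047 to 0.81 in Gm20939 among the genes higher in MEF-2, and is −1.21 in Snhg18.

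Snhg18, the host of the small nucleolar RNA Snord123, had the largest difference without overlap in the other direction. It was at 11.77, 11.68, 11.57, 11.56, 11.79, 11.38 and 11.61 in the MEF-1 clonal lines and at 10.32, 10.25, 10.67, 10.30, 10.37, 10.70 and 10.25 in the MEF-2 clonal lines. The MEF-1 parental line, at 11.01, lay below all its clonal lines and the MEF-2 parental line was at 10.41. The difference was −1.21 (SE 0.087, adjusted p = 3.07e-08). Sema5a, a semaphorin gene that starts 148 bases away on the opposite strand, ran from 11.77 to 12.84 in MEF-1 and from 10.71 to 12.73 in MEF-2 clonal lines and was not called (−0.70, SE 0.333, adjusted p = 0.0948).

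1700020I14Rik (Cyrano) was at 13.97, 14.16, 13.95, 13.95, 13.94, 13.83 and 13.69 in the MEF-1 clonal lines and at 13.50, 13.12, 13.33, 13.48, 13.41, 13.54 and 13.04 in the MEF-2 clonal lines, with parental lines at 13.84 and 13.47 (−0.58, SE 0.087, adjusted p = 5.71e-05). 2900097C17Rik (Norad) was at 15.91, 15.99, 15.88, 15.80, 15.85, 15.89 and 15.73 against 15.48, 15.32, 15.39, 15.49, 15.41, 15.62 and 15.30, with parental lines at 15.58 and 15.43 (−0.43, SE 0.058, adjusted p = 2e-05). These differences were small, but the sets of clonal lines did not overlap in either gene. The Norad value has a limit, since 51.6% of its transcript is also found in Gm7292, a lincRNA of chromosome 6 with a mean of 3.51.

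The remaining lincRNAs without overlap that were higher in MEF-1 included 6720427I07Rik, the let-7 host, at 10.75 to 11.26 in MEF-1 and 10.28 to 10.70 in MEF-2 clonal lines (−0.51, adjusted p = 0.000108). Snhg20, which holds a small Cajal body RNA and miR-6516, was at 8.55 to 8.99 against 7.92 to 8.47 (−0.55, adjusted p = 0.000354). Gm46430 was at 10.14 to 10.54 against 9.33 to 9.80 (−0.78, SE 0.086, adjusted p = 2.97e-06), 4632415L05Rik at 10.75 to 11.09 against 10.30 to 10.71 (−0.44, adjusted p = 0.000111), and Tmem250-ps at 11.64 to 12.05 against 11.35 to 11.55 (−0.38, adjusted p = 0.00101). RefSeq lists Gm46430 and Tmem250-ps as protein-coding and 4632415L05Rik as a transcribed pseudogene.

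Of 61 noncoding RNA symbols listed for a known role, some of them synonyms, 13 matched GENCODE symbols of the 77 lincRNAs. Of these 13, 2 were higher in MEF-2, 7 were higher in MEF-1 and 4 were not called. Over all genes tested the shares were 22.6% higher in MEF-2 and 25.7% higher in MEF-1, and the difference from them was not tested. Gm14005, which RefSeq names by the listed symbol Morrbid, was not matched by its GENCODE symbol and was not called (0.39, adjusted p = 0.0844). The 7 higher in MEF-1 were 2900097C17Rik, 1700020I14Rik, Snhg12, Snhg18, Snhg20, Pvt1 and Lncpint. Pvt1, the long transcript downstream of Myc, was at 10.23 to 11.15 in MEF-1 and 10.26 to 10.51 in MEF-2 clonal lines (−0.36, SE 0.114, adjusted p = 0.0159), and Myc itself differed by 0.16 (adjusted p = 0.525). Snhg12, the host of 3 H/ACA small nucleolar RNAs and of Snord99, differed by −0.24 (adjusted p = 0.0344), and Lncpint, a p53-induced RNA, by −0.30 (adjusted p = 0.0427), both with overlap between the sets and with calls that were lost when certain single clonal lines were left out. Mkln1, the protein-coding gene nearest to the start of Lncpint, was also higher in MEF-1 (−0.44, adjusted p = 1.61e-06). Snhg6 (−0.14, adjusted p = 0.166), Dubr (0.11, adjusted p = 0.37), Carmn (−0.14, adjusted p = 0.501) and Epb41l4aos (0.19, adjusted p = 0.332) were not called. Relative to their chromosome medians, Snhg6 (−0.24, adjusted p = 0.0152) and Carmn (−0.44, adjusted p = 0.00737) were called higher in MEF-1.

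Trp53cor1, known as lincRNA-p21, a p53 target transcribed beside the cell cycle inhibitor Cdkn1a, was 1 of the 2 listed genes higher in MEF-2. It was at 8.37, 8.49, 8.48, 8.73, 8.59, 8.04 and 8.03 in the MEF-1 clonal lines and at 9.23, 8.87, 9.31, 9.06, 9.48, 9.42 and 8.47 in the MEF-2 clonal lines, with parental lines at 8.23 and 8.45. The difference was 0.73 (SE 0.158, adjusted p = 0.00143), and MEF-2 clonal line 7 and the MEF-2 parental line lay within the MEF-1 range. Cdkn1a, whose start is 11797 bases away, ran from 8.66 to 10.41 in MEF-1 and from 11.58 to 12.73 in MEF-2 clonal lines, a difference of 2.61 (SE 0.226, adjusted p = 2.23e-07). Its parental lines were closer to each other, at 11.63 and 12.39. The MEF-1 parental line lay above all its clonal lines and within the range of the MEF-2 clonal lines.

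The other was Mir17hg (chr14:115042879-115046727, plus strand). It was at 7.90, 6.96, 7.99, 7.85, 7.73, 8.18 and 8.12 in the MEF-1 clonal lines and at 8.85, 8.65, 7.54, 8.56, 8.83, 8.56 and 8.71 in the MEF-2 clonal lines, with parental lines at 8.71 and 8.97, each above all its clonal lines. The difference was 0.71 (SE 0.213, adjusted p = 0.0122), and the sets overlapped because MEF-2 clonal line 3 stood more than 1 unit below its set. MEF-1 clonal line 2 and MEF-2 clonal line 3, the lowest of each set, were also the lines in which chromosome 14 genes as a whole were low, by medians of −0.23 and −0.21, where the other clonal lines were between 0.01 and 0.08. With the chromosome median taken away these lines stood at 7.19 and 7.75 and the difference was 0.71 (adjusted p = 0.00314). Without MEF-1 clonal line 2 the difference was 0.56 (adjusted p = 0.0199) and without MEF-2 clonal line 3 it was 0.87 (adjusted p = 0.000598). The part of the chromosome in the level of Mir17hg was not tested.

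**Figure D4:**
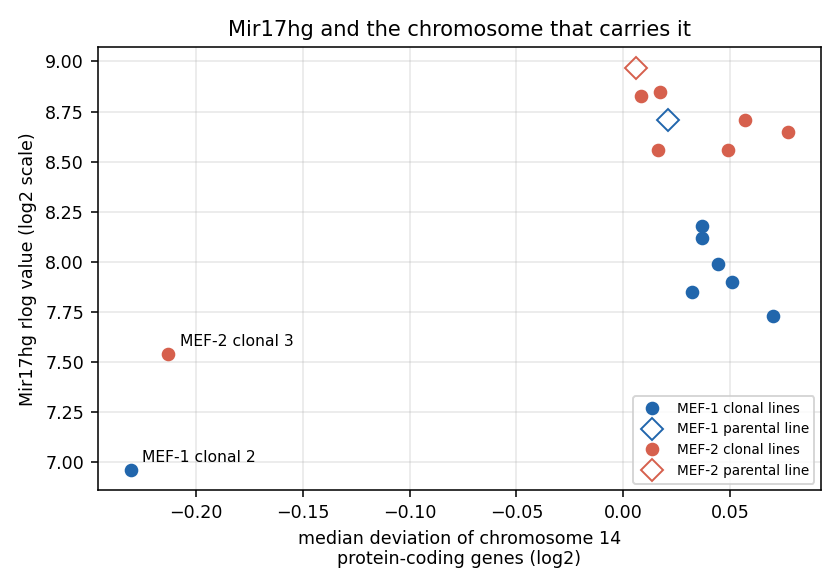
Mir17hg rlog value (log2 scale, vertical axis) against the median deviation of chromosome 14 protein-coding genes (log2, horizontal axis) in each clonal line (dots) and parental line (open diamonds). MEF-1 clonal line 2 and MEF-2 clonal line 3 lie apart at the lower left, at Mir17hg values of 6.96 and 7.54.

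The largest whole-chromosome shifts between the sets were on chromosomes 12, 18 and 19. From read coverage, the study's methods report aneuploidy of these chromosomes in at least 1 of the lines. Medians over protein-coding genes differed, MEF-2 minus MEF-1, by 0.65 on chromosome 12, 0.30 on chromosome 18 and −0.33 on chromosome 19, and these chromosomes carry 9 of the 77 lincRNAs, 3 higher in MEF-2 and 2 higher in MEF-1. With chromosome medians taken away in every line, 21 lincRNAs were higher in MEF-2 and 25 in MEF-1. Of the 43 calls 39 were kept and 4 were lost, and 7 were gained. Most of these changes were on chromosomes other than 12, 18 and 19. Gm28875 on chromosome 12 went from 0.02 (adjusted p = 0.947) to −0.63 relative to its chromosome and was then called. On chromosome 18, whose genes were low in MEF-1 clonal lines 1, 4 and 5, Carmn was at 9.75, 10.05 and 9.70 in these lines and at 10.29 to 10.62 in the other MEF-1 clonal lines. Epb41l4aos did not divide so cleanly, at 8.65, 8.88 and 8.43 against 8.56, 9.34, 9.22 and 9.54.

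Within a set, clonal lines grown from 1 parental line differed from each other in lincRNA level. The median SD over the 77 lincRNAs was 0.21 among MEF-1 and 0.18 among MEF-2 clonal lines (n = 7 each). Protein-coding genes with a mean of 8 or more had medians of 0.16 and 0.13, but they were more highly expressed, with a median level of 11.53 against 9.31. At matched levels the lincRNAs were lower between 8 and 9 (0.24 against 0.27 in MEF-1, 0.21 against 0.23 in MEF-2) and higher at each level above, for instance between 10 and 11 (0.19 against 0.16, and 0.17 against 0.13) and between 11 and 12 (0.21 against 0.15, and 0.20 against 0.12), the last from 6 lincRNAs. The SD was larger in MEF-1 than in MEF-2 for 44 of the 77 (57.1%, against 64.1% of genes of that level). MEF-1 clonal line 2 held the highest value of its set for 28 lincRNAs and the lowest for 12 (51.9% in all). Among the 11201 genes of that level the same line was more often lowest, in 2670, than highest, in 1856 (40.4% in all). MEF-2 clonal line 3 held the highest value for 23 lincRNAs and the lowest for 17 (51.9%), against 2936 and 3080 of those genes (53.7%). No test was made of these spreads.

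**Figure D5:**
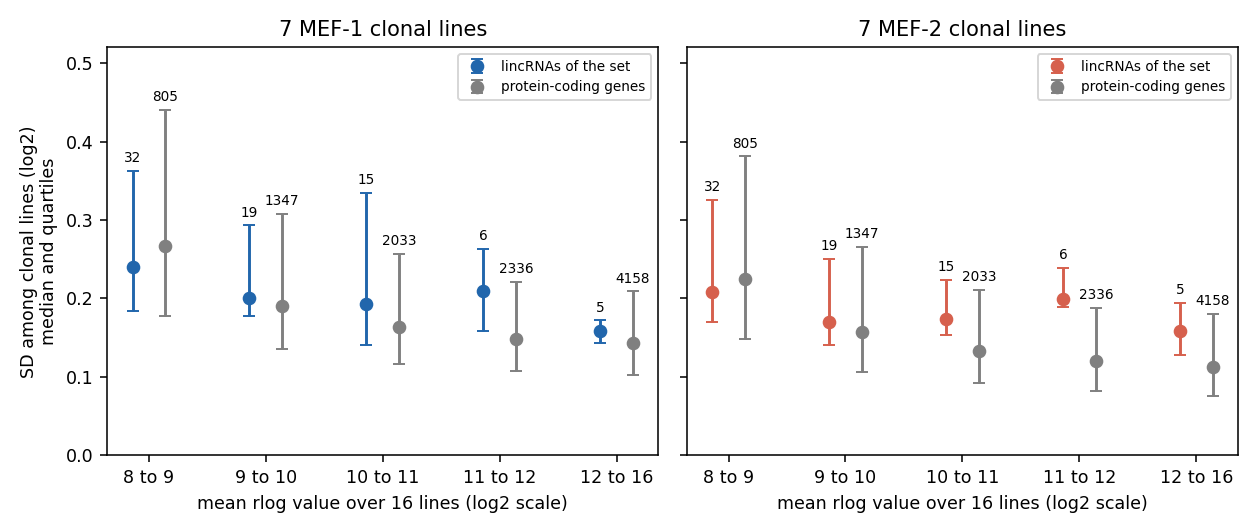
SD among the 7 MEF-1 clonal lines (left) and the 7 MEF-2 clonal lines (right) by mean rlog value, as medians (points) with quartiles (bars), for the lincRNAs (colour) and protein-coding genes (grey); numbers above the bars are genes. LincRNAs lie a little below protein-coding genes at means of 8 to 9 and above them at higher means.

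An SD of 0.5 or more was found for 6 lincRNAs in MEF-1 and 4 in MEF-2. Gm9801, a transcript of up to 22 exons on chromosome 7 in the region of the imprinted gene Ndn, was at 6.93, 9.09, 8.48, 8.95, 8.11, 9.38 and 8.02 in the MEF-1 clonal lines (SD 0.831) and between 8.79 and 9.79 in the MEF-2 clonal lines (0.83, SE 0.309, adjusted p = 0.0363, a call that was lost without certain single lines). A230057D06Rik, the neighbouring host of the miR-344 genes, was at 7.26, 8.91, 8.47, 8.89, 8.46, 9.15 and 7.80 in the same MEF-1 lines. In both, MEF-1 clonal line 1 was the lowest and clonal line 6 the highest. Gm37233, which holds miR-5103, varied in both sets, at 10.66, 9.97, 9.17, 10.61, 10.40, 9.57 and 8.48 in MEF-1 and 8.47, 7.00, 8.49, 7.60, 9.47, 8.51 and 7.68 in MEF-2 (SD 0.812 and 0.811). The difference in Gm37233, −1.66, had the largest SE among those named here (0.389, adjusted p = 0.00246), and the sets overlapped.

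Bc1 is a short cytoplasmic RNA made by RNA polymerase III and best known from neurons, where it represses translation. Its 168 bases (chr7:144914470-144914637, plus strand, GRCm38) include a long run of A, and 61.3% of them lie in stretches of 95% identity in other genes.
Bc1: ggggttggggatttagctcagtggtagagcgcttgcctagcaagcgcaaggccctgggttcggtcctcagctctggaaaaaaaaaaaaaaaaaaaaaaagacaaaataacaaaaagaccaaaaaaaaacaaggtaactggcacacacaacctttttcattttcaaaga
It was at 9.42, 11.10, 10.09, 10.29, 11.77, 11.19 and 11.10 in the MEF-1 clonal lines (SD 0.803), a range of more than 2 units, and between 10.66 and 11.13 in the MEF-2 clonal lines (SD 0.166). The parental lines were at 10.71 and 10.33, and the means of the sets did not separate (0.19, SE 0.278, adjusted p = 0.597). Gm42743, which overlaps the histone gene Hist2h2bb, was at 8.80, 9.07, 9.52, 9.91, 10.84, 9.92 and 10.02 in the MEF-1 clonal lines and from 10.05 to 10.68 in MEF-2 (0.66, SE 0.245, adjusted p = 0.036, likewise lost without certain single lines), and Hist2h2bb was higher in MEF-2 too (0.74, adjusted p = 0.0195). In MEF-2 the widest ranges besides Gm37233 were those of Gm43672 (8.89 to 10.41, SD 0.523), Gm28875 (9.96 to 11.47, SD 0.505) and Gm14005 (8.22 to 9.61, SD 0.475).

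The parental lines, 1 library each, lay outside the range of their 7 clonal lines for 28 lincRNAs in MEF-1 (36.4%, 10 above and 18 below) and 29 in MEF-2 (37.7%, 14 above and 15 below). For genes of any type with a mean of 8 or more the shares were 44.2% and 35.7%. Both parental lines lay above all their clonal lines for 5 lincRNAs (6.49%, against 5.33% of such genes) and both lay below for 4 (5.19%, against 7.86%). The 5 were Zfp469, Mir17hg, Gm14005, Gm47486 and Gm48799 and the 4 were E430024I08Rik, Gm46430, Gm20300 and Gm36283, of which those outside the naming rule were named after their values were seen. The clearest was Gm14005, named Morrbid in RefSeq, an RNA known for setting the lifespan of myeloid cells. Its parental lines were at 9.64 and 9.76, and its clonal lines ran from 8.08 to 8.56 in MEF-1 and from 8.22 to 9.61 in MEF-2, where clonal line 7 alone came near the parental line. Zfp469 was at 14.06 and 14.08 in the parental lines, against 13.42 to 13.84 and 12.94 to 13.85 in the clonal lines.

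For 69 lincRNAs the protein-coding gene with the nearest start was also tested, at a median distance of 14995 bases, and 38 of these neighbours were called (55.1%, against 48.3% of all genes tested and 57.0% of genes with a mean of 8 or more). In 17 pairs both genes were called, 16 in the same direction and 1, 1700020I14Rik and Nusap1 (0.77), in opposite directions. Among the 16 same-direction pairs, Gm42743 and Hist2h2bb, 5930430L01Rik and Gm42791, Gm49797 and Scaf8, and 1300002E11Rik and Map3k13 overlap on the same strand. Values within such a pair may not be independent. Over all 69 pairs, whether called or not, 43 had differences of the same sign, and among the 30 lincRNAs that were not called themselves 17 did, while 21 of these 30 neighbours were called. Pairs called in the same direction included 2900097C17Rik with Epb41l1 (−0.84, adjusted p = 2.01e-06), Gm43672 (−0.74, adjusted p = 0.0122) with Tbl1xr1 (−0.60, adjusted p = 0.00133), and Trp53cor1 with Cdkn1a. Of 15 lincRNAs that start within 2000 bases of a protein-coding gene on the opposite strand, 3 were higher in MEF-2 and 4 higher in MEF-1, and in 3 of the pairs both genes were called, in the same direction. These pair counts are those without removal of chromosome medians, and they change with it. With the medians taken away, Klhdc4 beside Gm42047 and Zfp146 beside Gm5113 were no longer called. AU020206 with Klhl25 and AC158975.2 with Zfp236 were then called in opposite directions, while Trp53cor1 with Cdkn1a kept the same direction. Pairs that share a chromosome segment are not independent of each other, and no test of these counts was made.

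By structure, the 15 lincRNAs with 1 exon included 1 higher in MEF-2, 9 higher in MEF-1 and 5 not called, and the 62 with several exons included 19, 14 and 29. Without the 17 that share most of their sequence with other genes, single-exon lincRNAs divided as 0, 8 and 3 and those with several exons as 12, 12 and 25. The 13 hosts of small RNAs included 2 higher in MEF-2 and 5 higher in MEF-1, and the 64 others 18 and 18. Beside these counts, 22.6% of all genes tested were higher in MEF-2 and 25.7% higher in MEF-1. Of the 11201 genes with a mean of 8 or more, 3579 and 2804 were. These splits were made with the calls known and are given as counts, and whether they depart from these shares was not tested.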

How the data were processed

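The authors trimmed 150-base paired-end reads (Trim Galore 0.6.0), quantified transcripts (Salmon 1.5.2, Ensembl release 102, mm10) and made regularised log2 values (rlog, DESeq2 1.24.0), which were deposited as 1 table of 54453 genes by 16 lines. No counts were used here, so the depth of each library is unknown and no counting interval can be given. The rlog shrinks differences of weakly covered genes, and 23600 genes were exactly 0 in every line.

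Genes were typed and placed with GENCODE mouse release 21 (54200 identifiers matched, 253 did not), and positions are 1-based on mm10. limma 3.58.1 (R 4.3.3) with a trended prior compared 7 MEF-2 with 7 MEF-1 clonal lines over 21313 genes with a mean above 0, with Benjamini-Hochberg adjustment over all of them and 0.05 as threshold. Differences are MEF-2 minus MEF-1. Parental lines, 1 library each, were compared with the range of their clonal lines and entered no test in the main analysis. Shared sequence was searched with BLAST 2.17.0 among annotated transcripts, keeping stretches of 95% identity or more. Scripts used Python 3.11.15, pandas 2.3.3 and numpy 2.4.6, and the fit was checked on simulated data.

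The lincRNAs, the list of RNAs with known roles and the tests were chosen with earlier results of these data known. Named were the 5 lincRNAs of highest mean, the 8 largest called differences without overlap in each direction, the 4 widest ranges in each set, the lincRNAs with a known role, those at the bound of 8, the protein-coding neighbours of these, and the 3 genes most like the lincRNA of largest difference. Genes outside this rule, including those sharing sequence with Gm42047 or Gm49083, those on chromosomes 18 and 12, A230057D06Rik and those named for their parental lines or their annotation, were named after their values were seen. Alternatives were other centring, filters, thresholds, bounds on the mean, designs and the omission of each clonal line.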

Additional observations from a re-analysis of the deposited data

Results flagged for a closer look

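Among 37 named lincRNAs, each set of 7 clonal lines was examined for a line that stands apart, by the gap to the nearest line as a share of the whole range, against the 95% critical value of Dixon's test for 7 lines. Of 74 sets, 3 passed, and chance alone would pass about 1 in 20. Dubr, a lincRNA known from myoblasts, was at 10.57 in MEF-1 clonal line 2, where the next highest line was at 10.31 (0.57 of the range). Mir17hg was at 6.96 in MEF-1 clonal line 2, with the next lowest line at 7.73 (0.63 of the range). Mir17hg was also at 7.54 in MEF-2 clonal line 3, with the next lowest line at 8.56 (0.78 of the range). The lines apart for Mir17hg were those with low chromosome 14 medians, and the part of the chromosome in these values was not tested.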

How the results depend on the processing

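The counts of 20 lincRNAs higher in MEF-2 and 23 higher in MEF-1 stayed within 1.5 times of these under centring of each line (20 and 24), removal of chromosome medians (21 and 25), no filter on low values (18 and 17), a fit on genes with a mean of 8 or more (20 and 23), parental lines in the fit (20 and 19) and no trend (20 and 23). With each clonal line left out in turn they ran from 18 to 22 and from 17 to 22. The counts moved with stricter rules: 10 and 8 by absence of overlap, and 16 and 15 at an adjusted p of 0.01. With a bound of 9 on the mean, 45 lincRNAs remained, 10 higher in MEF-2 and 17 in MEF-1, and with a bound of 7 there were 115, 28 and 36, as the sets then differ in size. The parental lines then lay outside their clonal lines for 18 (MEF-1) and 15 (MEF-2) lincRNAs at a bound of 9 and for 44 and 41 at a bound of 7. Median spread was 0.639 in MEF-1 and 0.525 in MEF-2 as a range in place of an SD, a wider measure by construction, and the median SDs ran from 0.195 to 0.224 and from 0.164 to 0.195 with 1 clonal line left out.

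The clone numbers do not pair lines across the sets: same-numbered lines had correlations of deviations between −0.17 and 0.22, 3 of 7 over 0.1, and 0 lines correlated best with their own number. A fit with the number as a replicate block called 19 and 22 lincRNAs, and Gm9801 and Gm49797 were lost from the calls.

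Removing chromosome medians kept 39 of 43 calls, lost 4 (Snhg12, Lncpint, Gm9801 and AC122442.1), gained 7 (Gm28875, Carmn, Snhg6, Gm37494, Gm14005, Gm14230 and A530017D24Rik) and changed no sign among genes called in both. Signs turned in 6 lincRNAs that had not been called with chromosome medians taken away: Epb41l4aos (−0.108), 2900076A07Rik (−0.042), AC102496.1 (−0.083), Gm45899 (−0.055), 6030443J06Rik (0.007) and Gm28875 (−0.634, adjusted p = 0.0128). Among the 37 named lincRNAs, the sign of Gm28875 also turned with lines centred (−0.02). Leaving out 1 line turned Zfp469 to 0.004 (MEF-2 clonal line 3; range −0.148 to 0.004), Bc1 to −0.023 (MEF-1 clonal line 1; range −0.023 to 0.368), and Gm28875 below 0 (MEF-1 clonal lines 2 and 6, and MEF-2 clonal lines 1, 3 and 6; range −0.095 to 0.158).

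The cause was not tested. Of the named calls, 4 were lost on leaving out single clonal lines, with adjusted p from 0.0549 to 0.0755 for Gm42743 (MEF-1 lines 1, 2 and 3, and MEF-2 lines 1, 2, 4, 5 and 7), from 0.0514 to 0.0734 for Gm9801 (MEF-1 lines 1, 3, 5 and 7, and MEF-2 lines 1, 4, 5 and 6), from 0.0502 to 0.0916 for Lncpint (MEF-1 lines 1, 2, 3, 4 and 7, and MEF-2 lines 2, 3, 5, 6 and 7) and from 0.0537 to 0.0729 for Snhg12 (MEF-1 lines 1 and 4, and MEF-2 lines 1, 2, 3 and 7).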
